A study of Mus musculus with 8 samples.

Results

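Transcripts of 32 DNA damage response and repair genes were examined in the ventricles of mouse hearts at embryonic stage E14.5. The genes were taken by symbol from a deposited table of 15358 genes, and each of the 32 symbols was present. The study compared whole ventricles of Lem2 f/f control embryos, which carry floxed alleles of Lem2 (Lemd2 in the table), which encodes a protein of the inner nuclear membrane, with ventricles of XMLC2V; Lem2 f/f cKO embryos, which carry the same floxed alleles and a Cre transgene labelled XMLC2V. The labels do not say which cells express this Cre, and whole ventricle also holds cells other than muscle. Libraries of 3 controls and 4 conditional knockouts (cKO) had a column of their own. Levels are given as CPM, the count scaled to a common library size after TMM normalization, as mean ± SD over 3 control and 4 cKO libraries, and fold changes are log2 values of cKO over control.

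Cells detect broken DNA through sensor complexes, which activate the kinases ATM, ATR and DNA-PK. These kinases mark the surrounding chromatin, halt the cell cycle through CHK1 and CHK2, and recruit repair by end joining or by homologous recombination. Excision and mismatch repair remove damaged or mispaired bases, and the Fanconi anaemia proteins repair crosslinks between strands. Much of this signalling acts through phosphorylation and ubiquitylation of proteins that are already present, while a part of the genes is transcribed mainly in cycling cells around S phase. In the fetal ventricle the muscle cells still divide, so both kinds of gene are active there.

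None of the 32 genes passed the test, and the intervals leave room for small differences in nearly all of them. The fit called 0 of 32 members in either direction, against 1.09% of all 14887 genes tested (0.766% higher and 0.322% lower; quasi-likelihood test of edgeR, Benjamini-Hochberg adjusted over all genes tested). The smallest adjusted p among the members was 0.189, for Msh6. At an unadjusted p under 0.05 there were 2 members (Msh6 and Exo1), or 6.25%, against 17.9% of all genes tested. DESeq2 also called 0 of 32, against 5.18% of the genes to which it gave an adjusted p, and its smallest adjusted p for a member was 0.232. Group means lay within 5% of each other for 23 members and within 10% for 31. The exception was Ddb2, whose cKO mean lay 13.9% under the control mean.

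The intervals bound how large a difference these libraries leave room for. For 31 of 32 members the 95% confidence interval of the log2 fold change lay inside a 1.25-fold change either way (0.32 on the log2 scale), against 63.6% of all genes tested. Precision rises with counts, so genes whose mean CPM lies in the members' range are a nearer reference: of these, 81% had an interval inside that band, and 1.29% were called. All 32 member intervals lay inside a 1.5-fold change (0.58 on the log2 scale), against 81.7% of all genes tested. The interval of Ddb2, the member with the lowest counts, ran from -0.47 to 0.04. The standard error (SE) of the log2 fold change ran from 0.033 for Msh6 to 0.11 for Ddb2. The SD between libraries of one group had a median of 3.69% of the mean in control and 3.64% in cKO.

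**Figure D1:**
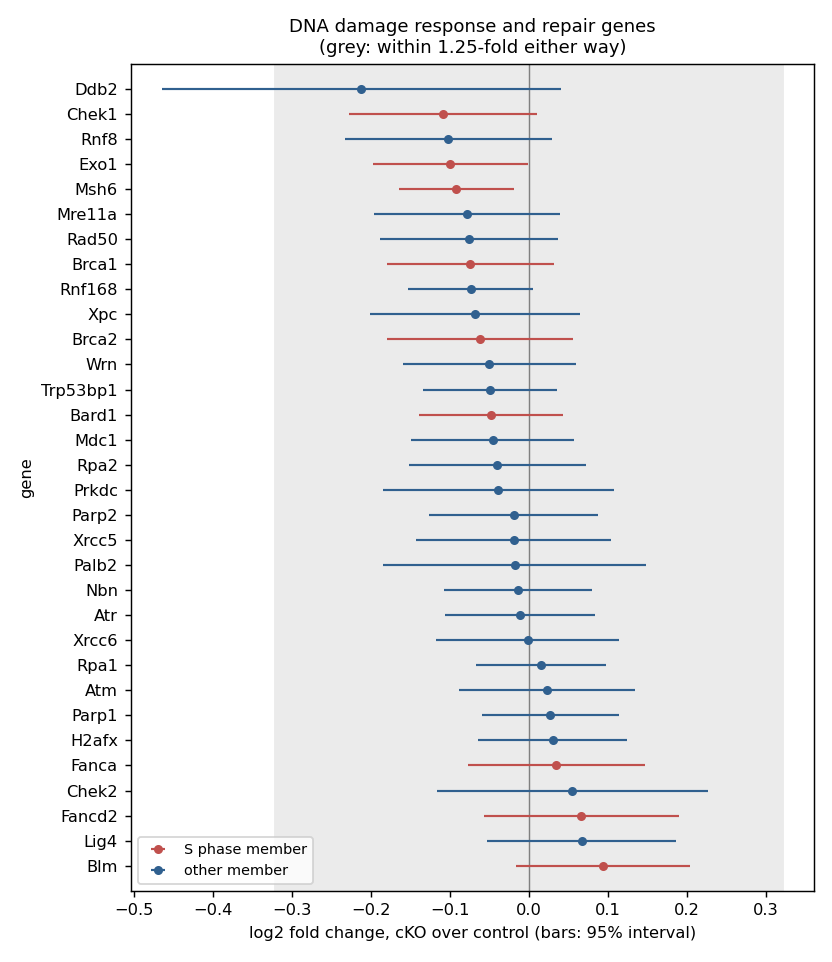
Log2 fold change of cKO over control for each of the 32 genes (points) with its 95% confidence interval (bars), ordered by value; red marks the 9 genes known for S phase transcription and blue the other 23. The points run from -0.21 for Ddb2 to 0.09 for Blm, and the bars of 31 genes stay inside the grey 1.25-fold band.

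More members lay below 0 than above it. Of 32 members 23 had a log2 fold change below 0 and 9 above, while 47.9% of all genes tested lay above 0. The median was -0.04 over the members and -0.01 over all genes tested. By library, the median deviation of the members from the control mean on the log2 scale was -0.03, 0.01 and -0.01 in control replicates 1 to 3, and -0.05, -0.03, -0.005 and -0.05 in cKO replicates 1 to 4. The cKO libraries overlap the controls in this median. Of the 7 libraries, cKO replicate 1 held the lowest value for 13 members and cKO replicate 4 for 10. Control replicates 2 and 3 held the highest value for 8 members each.

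**Figure D2:**
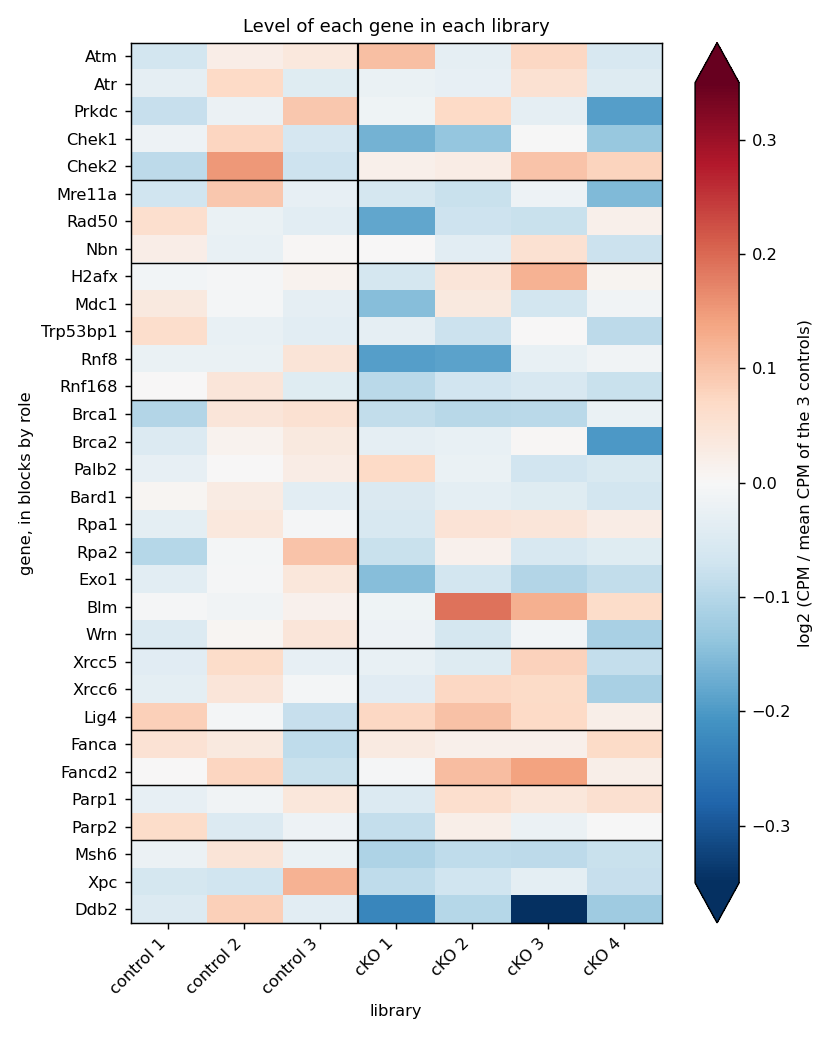
Level of each gene (rows, in blocks by role) in each library (columns, 3 control and 4 cKO) as log2 of its CPM over the mean CPM of the 3 controls. Blue cells gather in cKO replicates 1 and 4, which hold the lowest value for 13 and 10 genes, and the row of Ddb2 holds the darkest cell, in cKO replicate 3.

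The libraries held 28921922 to 39351262 counts. Lemd2, the targeted gene, fell from 35.9 ± 1.28 to 16.4 ± 2.01 CPM in the cKO libraries. On the log2 scale the change was -1.13 with an SE of 0.086, and edgeR gave an adjusted p of 0.00135. Its values were 36.8, 34.4 and 36.4 CPM in the controls and 18.5, 17.1, 16.3 and 13.7 CPM in the cKO libraries, so the groups do not overlap. Xist, expressed from the inactive X of females, was at 1324 and 1102 CPM in cKO replicates 3 and 4 and at most 0.504 CPM elsewhere, so sex differed between the groups. None of the members lies on the X chromosome (0 of 32). The 7 ventricular markers summed to 25401 to 27360 CPM in control and 21480 to 26720 CPM in cKO, and 6 of them had a log2 fold change below 0. Hey2 (-0.35) and Irx4 (-0.25) lay lower in each cKO library and were called by DESeq2 (adjusted p = 0.00138 and 0.0198) but not by edgeR (0.0763 and 0.105). DESeq2 called these 2 of the 7, against 5.18% of the genes to which it gave an adjusted p. Myh7 (-0.15), Tnnt2 (-0.12), Myl3 (-0.06), Myl2 (-0.02) and Actn2 (0.01) had groups that overlap. Sums of 8 endothelial markers overlapped, with 6 log2 fold changes above 0 and 2 below. Npr3 (0.29), Emcn (0.17) and Nfatc1 (0.10) lay higher in each cKO library, and DESeq2 called Npr3 alone (adjusted p = 0.00716). Sums that did not overlap were those of 10 macrophage markers (98.6 to 102 CPM in control, 109 to 122 CPM in cKO), 5 smooth muscle markers (939.8 to 1108 against 1112 to 1689 CPM) and the 2 neural crest markers in the table (7.98 to 9.85 against 6.85 to 7.30 CPM). Of the 10 macrophage markers 9 had a log2 fold change above 0, and the median was 0.40. Of these markers edgeR called 1 (C1qb, higher), against 1.09% of all genes tested. DESeq2 called 2 (C1qb and C1qc, both higher), against 5.18% of the genes to which it gave an adjusted p. The marker below 0 was Mrc1, which was lower in each cKO library (-0.21, not called by either). Of the smooth muscle markers 3 had a log2 fold change above 0 and 2 below, with 0 called by edgeR or DESeq2. Acta2 made up most of their sum (means of 808 CPM in control and 1099 CPM in cKO). Myh11 had -0.53 (SE 0.23) and Rgs5 -0.38 (SE 0.26), with groups that overlap. No marker was at 0 in these lists, and their part in the members' values was not tested. In bulk tissue fewer cells of a type and less RNA per cell cannot be told apart.

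Sequences next to the start sites were read for motifs of cell cycle transcription. Of the members, 23 had a promoter in the RefSeq table (GRCm38.p6, the build mm10), which holds 250 bases before to 50 bases after the start site. Each was searched on both strands for the letters TTTNNCGC (N is any base), taken for the core of E2F sites. Also searched were the CCAAT box (CCAAT) and the cell cycle homology region known as CHR (TTTGAA). E2F sites bind the factors that drive S phase transcription, and forms that differ from these letters were not searched. In the 32851 promoters of the table, matches of different motifs overlapped in 54. The E2F letters were in 6 of 23 members (26.1%: Chek2, Mdc1, Brca2, Bard1, Xrcc6 and Msh6), against 9.34% of the tested genes with a promoter and 5.93% of all genes in the table. CCAAT was in 60.9% of the members against 42.3% of tested and 41.1% of all genes. CHR letters were in 8.7% of the members against 14.2% of tested and 20.2% of all genes. A match is a description and not a site of binding.

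The 4 promoters printed here are those of Msh6 and Rnf168, the members with a promoter in the table whose groups do not overlap and lie lower in cKO, of Xrcc6, a member with E2F letters at 2 places and a log2 fold change near 0, and of Polq, the called gene of the wider repair lists. Capitals mark matches to any of the 3 motifs on either strand. Msh6 holds an E2F match 15 bases after the start site and a CCAAT match 34 bases before it. Xrcc6 holds E2F matches 155 and 46 bases before the start and a CCAAT match 27 bases after it. Polq holds CHR matches 242 and 3 bases before the start, and Rnf168 holds none of the 3.
Msh6 (chr17:87974800-87975099, plus strand): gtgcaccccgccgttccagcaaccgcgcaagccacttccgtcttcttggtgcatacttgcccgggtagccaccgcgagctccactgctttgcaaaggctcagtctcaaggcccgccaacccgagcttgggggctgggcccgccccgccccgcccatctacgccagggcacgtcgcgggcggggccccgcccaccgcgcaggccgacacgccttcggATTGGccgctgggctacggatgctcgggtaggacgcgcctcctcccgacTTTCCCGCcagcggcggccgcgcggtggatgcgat
Xrcc6 (chr15:82016119-82016418, plus strand): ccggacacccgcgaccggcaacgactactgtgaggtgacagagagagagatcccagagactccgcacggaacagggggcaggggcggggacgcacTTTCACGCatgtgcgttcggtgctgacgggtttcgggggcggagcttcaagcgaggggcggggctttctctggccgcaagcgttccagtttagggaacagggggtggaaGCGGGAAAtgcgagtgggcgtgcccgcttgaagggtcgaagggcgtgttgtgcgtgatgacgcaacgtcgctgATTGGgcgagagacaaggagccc
Rnf168 (chr16:32277211-32277510, plus strand): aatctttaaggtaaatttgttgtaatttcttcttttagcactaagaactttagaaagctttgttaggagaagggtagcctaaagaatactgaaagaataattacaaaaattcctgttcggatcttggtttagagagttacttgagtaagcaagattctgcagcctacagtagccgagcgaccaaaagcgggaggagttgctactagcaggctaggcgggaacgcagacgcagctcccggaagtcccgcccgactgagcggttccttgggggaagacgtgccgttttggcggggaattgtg
Polq (chr16:37011536-37011835, plus strand): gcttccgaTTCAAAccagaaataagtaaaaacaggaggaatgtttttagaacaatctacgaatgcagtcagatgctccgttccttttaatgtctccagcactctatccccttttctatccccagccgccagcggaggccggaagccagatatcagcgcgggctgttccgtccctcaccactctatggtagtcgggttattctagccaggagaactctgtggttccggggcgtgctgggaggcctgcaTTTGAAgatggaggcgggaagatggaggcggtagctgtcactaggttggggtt

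None of the 5 kinases that signal damage passed the test, and their log2 fold changes ran from -0.11 to 0.05. Atm, the kinase that responds to double-strand breaks, was at 47.4, 50.3 and 50.8 CPM in control and 53.2, 48.4, 52.1 and 47.6 CPM in cKO (log2 0.02, SE 0.050). Of the cKO values of Atm 2 lie above the controls and 2 among them. Atr, which responds to single-stranded DNA at stalled forks, had -0.01 (SE 0.042), and Prkdc, the catalytic subunit of DNA-PK, had -0.04 (SE 0.065). Chek1, the effector of ATR, was at 34.8, 37.2 and 33.9 CPM in control and 31.5, 32.1, 35.2 and 32.2 CPM in cKO. In 3 of 4 cKO libraries Chek1 lay under each control, and cKO replicate 3 lay among them (log2 -0.11, 95% interval -0.23 to 0.01, adjusted p = 0.319 by edgeR). Chek2, the effector of ATM, was at 9.91, 11.7 and 10.03 CPM in control and 10.7, 10.8, 11.3 and 11.2 CPM in cKO (log2 0.05, SE 0.076), and its groups overlap.

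The MRN complex, which holds broken ends and activates ATM, had a log2 fold change below 0 for each of its 3 subunits and none past the test. The nuclease Mre11a had -0.08 (SE 0.052), the ATPase Rad50 had -0.08 (SE 0.051) and the ATM-binding subunit Nbn had -0.01 (SE 0.042). Rad50 was lowest in cKO replicate 1 (41.5 CPM), while Mre11a (32.4 CPM) and Nbn (38.2 CPM) were lowest in cKO replicate 4. Whether the 3 vary together across libraries was not tested.

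Among the chromatin mediators at breaks, 4 of 5 had a log2 fold change below 0. H2afx, the histone variant H2AX that ATM phosphorylates, was at 115, 115 and 117 CPM in control and 111, 119, 126 and 116 CPM in cKO (log2 0.03, SE 0.042). Its cKO libraries spread over both sides of the narrow control range. Mdc1, the scaffold that reads the phosphorylated histone, had -0.05 (SE 0.046). Trp53bp1 (53BP1), which favours end joining over resection, was at 145, 136 and 135 CPM in control and 136, 132, 139 and 130 CPM in cKO (log2 -0.05, SE 0.038). Its groups overlap, and Tubgcp4 overlaps the gene on the opposite strand. The ubiquitin ligases Rnf8 and Rnf168 recruit 53BP1. Rnf168 was at 55.7, 57.3 and 54.0 CPM in control and 52.1, 53.1, 53.5 and 52.7 CPM in cKO, so each cKO library lay under each control. The distance was small (log2 -0.07, SE 0.035, adjusted p = 0.312 by edgeR). Rnf8 had -0.10 (SE 0.059) and overlaps Gm28043 on the same strand, which makes its counts uncertain.

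The 9 genes of resection and homologous recombination had log2 fold changes from -0.10 to 0.09. Exo1, the exonuclease that resects broken ends, was at 28.5, 29.1 and 30.0 CPM in control and 26.4, 27.9, 27.2 and 27.5 CPM in cKO. The groups of Exo1 do not overlap, and the difference did not pass over all genes (log2 -0.10, SE 0.044, unadjusted p = 0.0465, adjusted p = 0.272 by edgeR). Blm, the helicase that dissolves recombination intermediates, was at 49.5, 49.2 and 50.1 CPM in control and 49.1, 56.7, 54.1 and 51.8 CPM in cKO. Of the 32 members Blm had the highest log2 fold change, at 0.09 with an SE of 0.049 (edgeR adjusted p = 0.356), and 3 of 4 cKO libraries lay above each control. Wrn, the related helicase, had -0.05 (SE 0.049).

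Brca1, which with Bard1 forms the ligase that promotes recombination, was at 39.5, 43.6 and 44.0 CPM in control and 39.9, 39.6, 39.7 and 41.7 CPM in cKO. Control replicate 1 lay under all 4 cKO libraries, so the groups overlap (log2 -0.07, SE 0.047). Bard1 had -0.05 (SE 0.041), the recombination mediator Brca2 -0.06 (SE 0.053) and Palb2, which links Brca1 and Brca2, -0.02 (SE 0.074). The subunits of RPA, which coats single-stranded DNA, had 0.02 (SE 0.037) for Rpa1 and -0.04 (SE 0.050) for Rpa2.

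The 7 genes of end joining, crosslink repair and PARP signalling had log2 fold changes from -0.02 to 0.07. The Ku subunits Xrcc6 (Ku70) and Xrcc5 (Ku80), which thread onto broken ends, had -0.0014 (SE 0.052) and -0.02 (SE 0.055). Lig4, the ligase of this pathway, was at 21.7, 20.4 and 19.3 CPM in control and 21.5, 21.97, 21.5 and 20.7 CPM in cKO (log2 0.07, SE 0.054), and its groups overlap. Fancd2, which is ubiquitylated at crosslinks, was at 27.6, 29.0 and 26.1 CPM in control and 27.5, 29.7, 30.4 and 27.98 CPM in cKO (log2 0.07, SE 0.055). The groups of Fancd2 overlap too. Fanca, of the complex that modifies Fancd2, had 0.03 (SE 0.050) and overlaps Zfp276 on the opposite strand. Parp1 and Parp2, which add poly(ADP-ribose) at strand breaks, had 0.03 (SE 0.039) and -0.02 (SE 0.048).

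The 3 genes that recognise damaged or mispaired bases were the block with the lowest median (-0.09). Msh6, which recognises mismatched bases, was at 80.1, 83.8 and 79.9 CPM in control and 75.4, 76.4, 76.3 and 77.0 CPM in cKO. Each cKO library of Msh6 lay under each control, and the difference did not pass over all genes (log2 -0.09, SE 0.033, unadjusted p = 0.0188, adjusted p = 0.189 by edgeR). Fbxo11 overlaps Msh6 on the opposite strand and had 0.01 (SE 0.037). Xpc, which finds distorted helices in nucleotide excision repair, was at 19.0, 18.9 and 21.6 CPM in control and 18.7, 18.9, 19.4 and 18.8 CPM in cKO (log2 -0.07, SE 0.059). The higher control mean of Xpc came from control replicate 3, and the groups overlap.

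Ddb2, which finds ultraviolet lesions, had the lowest log2 fold change of the members. It was at 4.38, 4.80 and 4.41 CPM in control and 3.87, 4.23, 3.36 and 4.15 CPM in cKO. Its groups do not overlap, yet the difference did not pass (log2 -0.21, SE 0.11, adjusted p = 0.365 by edgeR). All 7 counts of Ddb2 were not whole, and Acp2, at a mean of 47.7 CPM, overlaps it on the opposite strand. Human DDB2 is a direct target of p53, whereas the mouse gene is known to lack this response.

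In all, 4 members had groups that do not overlap, each with cKO below (12.5%: Msh6, Exo1, Rnf168 and Ddb2), against 16.9% of all genes tested. Over all genes tested 8.28% lay below in this way and 8.67% above, while 0 of 32 members lay above. With log2 CPM of each of the 32 members in an exact permutation test, two-sided, Msh6, Exo1 and Rnf168 reached p = 0.0286, the smallest that 35 arrangements of 7 libraries allow, and Ddb2 had p = 0.0857. These p-values are unadjusted.

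**Figure D3:**
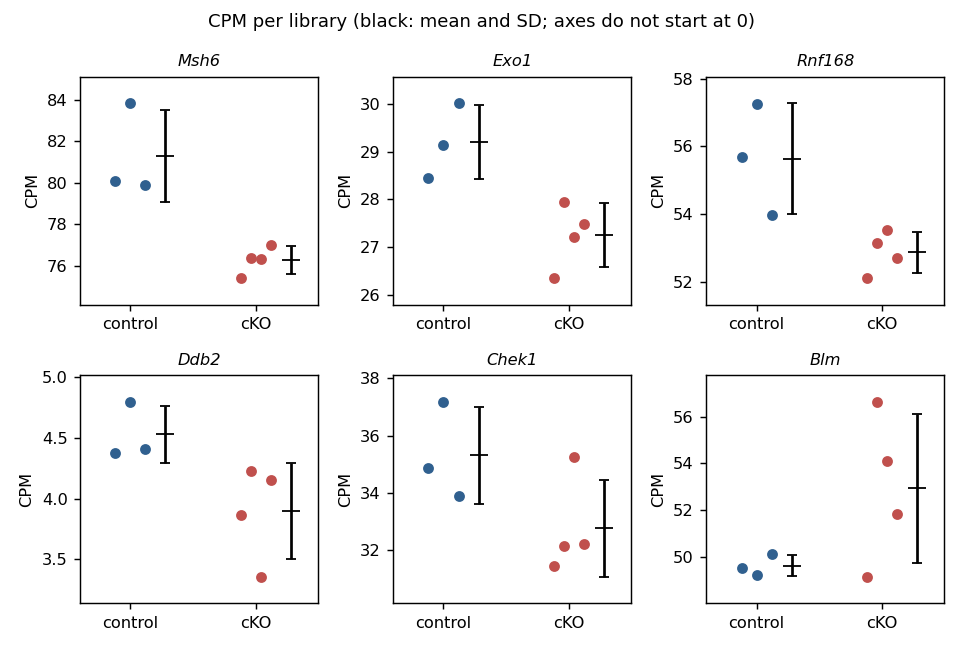
CPM in each library (points) with mean and SD (black) for 6 genes in control and cKO ventricle, with vertical axes that do not start at 0. Msh6, Exo1, Rnf168 and Ddb2 lie lower in each cKO library, while Chek1 and Blm overlap between groups.

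Members known to be transcribed around S phase were set beside the rest as a description. These 9 genes (Brca1, Brca2, Chek1, Exo1, Blm, Bard1, Fancd2, Fanca and Msh6) had a median log2 fold change of -0.06, with 6 below 0. The other 23 members had a median of -0.02, with 17 below 0. Among 20 markers of S phase and proliferation the median was -0.003. Of these 0 were called by edgeR or DESeq2, against 1.09% and 5.18% of all genes given an adjusted p by each. An unadjusted p under 0.05 in edgeR was reached by 2, against 17.9% of all genes tested. They were E2f1 (-0.14, SE 0.044), lower in each cKO library, and Tyms (0.15, SE 0.065), whose groups overlap. The replicative helicase genes Mcm2 (-0.003), Mcm3 (-0.03), Mcm4 (-0.06), Mcm5 (-0.004), Mcm6 (-0.08) and Mcm7 (-0.07) had log2 values inside the range of the members. Mki67, a marker of cycling cells, had 0.10 (SE 0.059) and Top2a, the topoisomerase of G2 and mitosis, had -0.06 (SE 0.043). By library the median deviation of these 20 markers was -0.07 in cKO replicate 1 and 0.03 in cKO replicate 4; these are the libraries that held the lowest value for most members.

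Per kilobase of exon (union of GENCODE M21 exons), the members spanned a wide range of levels. H2afx was highest at 83.5 CPM per kilobase in control and 85.2 in cKO. Parp1 followed at 39.6, then Rpa1 at 25.4 and Mdc1 at 25.04 CPM per kilobase in control. The lowest were Palb2 (1.01), Ddb2 (1.66) and Atr (2.28). The place of Atr rests on the length used, since its merged exons span 23629 bases against 10338 for Atm. Before division by length Atr was at 53.8 CPM in control and Atm at 49.5 CPM. Rpa1 and Mdc1 differ by less than the spread between libraries, as do Prkdc (3.01) and Wrn (3.02). The lowest count of any member in any library was 97.3, for Ddb2.

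Many members start next to a gene on the other strand. For 13 of 32 (40.6%) a gene of the table started within 1000 bases in the opposite direction, against 11.8% of all 15358 genes. Prkdc starts 466 bases from Mcm4, Atm 376 bases from Npat, Brca1 152 bases from Nbr1 and Xrcc6 149 bases from Desi1, whose start thus lies in the Xrcc6 sequence printed above. None of the 13 partners was called by edgeR, against 1.09% of all genes tested. An unadjusted p under 0.05 was reached by 4 of the 13, against 17.9% of all genes tested. Prkdc, Palb2 and Fancd2 had the sign of their partner, as with Fancd2 (0.07) and Emc3 (0.12, SE 0.032). The remaining members with a partner had the opposite sign, as with Wrn (-0.05) and Purg (0.18, SE 0.060). The largest partner value was 1.30 (SE 0.42) for Rpph1 beside Parp2 (-0.02), and each cKO library of Rpph1 lay above each control.

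Other repair genes were read from 9 wider lists on recombination, end joining, the Fanconi pathway, mismatch, nucleotide and base excision repair, checkpoints, break chromatin and lesion bypass. Of 140 genes listed 137 were in the table and tested. The fit called 1 higher and 0 lower, against 1.09% of all genes tested in either direction. An unadjusted p under 0.05 was found for 23 (16.8%), 7 of them higher and 16 lower. The groups did not overlap for 16.8% and the median log2 fold change was -0.03. Over all genes tested 17.9% had an unadjusted p under 0.05 and 16.9% had groups that do not overlap.

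The called gene was Polq, which encodes DNA polymerase theta of the microhomology-mediated end joining route. Polq was at 25.9, 25.5 and 25.8 CPM in control and 29.0, 30.8, 29.8 and 31.2 CPM in cKO, so each cKO library lay above each control. Its mean rose by 0.23 on the log2 scale (SE 0.044), from 25.8 ± 0.178 CPM to 30.2 ± 0.987 CPM, with an adjusted p of 0.0454 in edgeR. The call was lost when any library other than cKO replicate 1 was left out (adjusted p = 0.0744 to 0.145), among the 5 libraries whose titles carry the code F169 (0.17), in a fit with a term for Y-linked expression (0.198) and without cKO replicates 3 and 4 (0.216), with log2 values from 0.21 to 0.25 throughout.

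The next smallest p-values of the wider lists were mostly of lower values, and none passed by edgeR over all genes. Faap100 of the Fanconi core complex had -0.20 (SE 0.049), the checkpoint kinase Wee1 -0.17 (SE 0.045) and the core subunit Fance -0.21 (SE 0.056). DESeq2 called Faap100 (adjusted p = 0.0371) and Wee1 (0.0354) as well as Polq. These 3 calls among the 137 wider genes stand against 5.18% of all genes to which DESeq2 gave an adjusted p. Neil3, a glycosylase of base excision repair, had -0.19 (SE 0.060). On the higher side were Gtf2h1 of the repair and transcription factor TFIIH (0.14, SE 0.037), the bypass polymerase Polk (0.18, SE 0.060), the X-linked deubiquitylase gene Brcc3 (0.14, SE 0.052) and Faap24 (0.22, SE 0.083).

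Beside these genes stood p53, the transcription factor that damage kinases stabilise, with a list of genes linked to it. Trp53 had -0.03 (SE 0.040) and its ligase Mdm2 0.17 (SE 0.042, adjusted p = 0.0916 by edgeR). Of 10 genes on this list edgeR called 3 higher and 0 lower, against 1.09% of all genes tested in either direction. The median of the list was 0.14, with 7 genes above 0 and 3 below. DESeq2 called 4, with Mdm2 as the fourth (adjusted p = 0.0275), against 5.18% of the genes to which it gave an adjusted p. Cdkn1a, the cell cycle inhibitor p21, rose by a log2 fold change of 0.76 (SE 0.090), the cyclin Ccng1 by 0.33 (SE 0.043) and Gadd45a, a stress sensor, by 0.58 (SE 0.10), with adjusted p of 0.00733, 0.0107 and 0.0348 in edgeR. The list did not rise as a whole: Sesn1 (-0.0003), Ppm1d (-0.03) and Mdm4 (0.02) lay near 0. Sesn2 (0.21, SE 0.12) had groups that overlap, and Bax (0.12, SE 0.042) lay higher in each cKO library without a call. By library the median deviation of the 10 genes was 0.10, 0.19, 0.07 and 0.17 in cKO replicates 1 to 4, against -0.01 to 0.01 in the controls. The call of Ccng1 was lost without control replicate 2 or 3 (adjusted p = 0.059 and 0.0542), and that of Gadd45a without any library other than cKO replicate 1 (0.0724 to 0.12). Within F169 and without cKO replicates 3 and 4 none of the 3 was called (adjusted p from 0.0638 to 0.232, with log2 values from 0.33 to 0.80). In the fit with a term for Y-linked expression Cdkn1a was called (adjusted p = 0.0345 by edgeR), and Ccng1 (0.0569) and Gadd45a (0.184) were not.

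**Figure D4:**
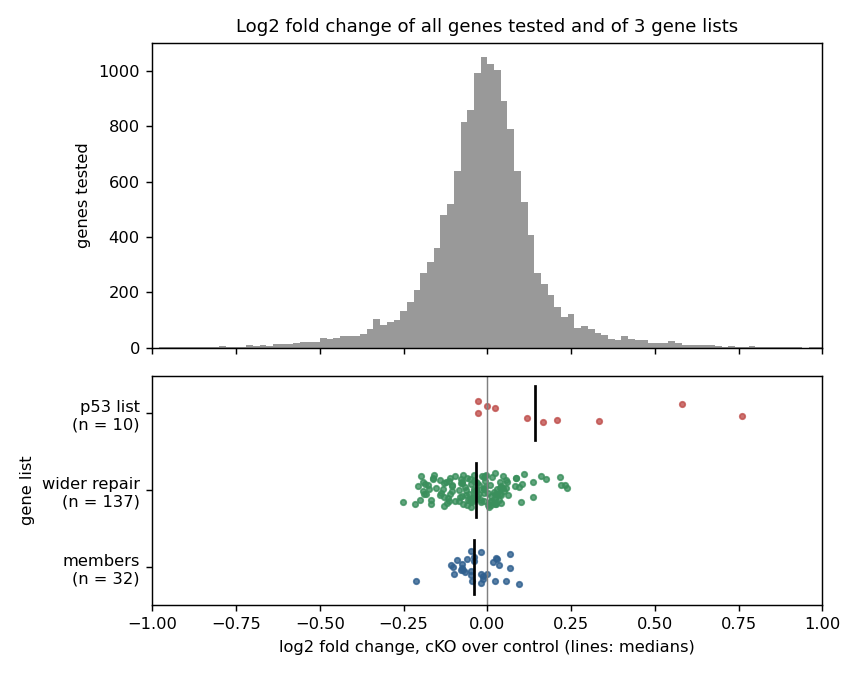
Histogram of the log2 fold change of cKO over control for all 14887 genes tested (top, axis cut at 1 either way) and the values of 3 gene lists (bottom; points are genes, black lines medians). The 32 members (median -0.04) and 137 wider repair genes (-0.03) lie around 0, while the p53 list (0.14) reaches to 0.76 for Cdkn1a.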

How the data were processed

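RNA of whole ventricle was made into libraries with a directional kit, per the labels' protocols. Values in the deposited table are estimated counts by gene, not scaled to depth by the authors. The submitters' processing notes list STAR 2.4.2a, HTSeq 0.6.1 and mm10 without their roles. How fractions arose (30.3% of values), and whether counting used strand, are not given in the sources used here. Columns were matched to samples by the code in the titles. The last value column equals the sum of the other 7 in all 15358 genes and was not used, and control replicate 4 was not analysed here. No label names separate litters, and the spread behind each p-value may be technical in part.

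Counts were rounded, filtered with filterByExpr (minimum count 10, which left 14887 genes) and scaled by TMM. Groups were compared with the quasi-likelihood test of edgeR 4.0.16 (R 4.3.3), Benjamini-Hochberg adjustment over all genes tested and a threshold of 0.05. Intervals use the SE and the degrees of freedom of that fit. Exact permutation tests used log2 CPM (prior count 2). The fit was tested on simulated data. There it called 55.2% of the genes changed 1.25-fold, 77.6% of those changed 1.5-fold and 97.0% of those changed 2-fold. A change of 1.25-fold can thus be missed by the calls. Members and lists were chosen with earlier results of these data known. Members with values by library are the 4 smallest p in each direction and Brca1, Atm, H2afx, Trp53bp1, Ddb2 and Xpc. Named of the wider lists are calls and the 5 smallest p in each direction, of which 1 is not reported here, and of the context lists the calls, Trp53, Mdm2, Mki67, Top2a and Mcm2 to Mcm7. Markers, overlapping genes, genes at shared start sites, E2f1, Tyms and the remaining genes of the p53 list were named after their values were seen. DESeq2 1.42.0, limma 3.58.1 (voom), other scalings, no filter, unrounded counts, terms for replicate number, title code or Y-linked expression, and left-out libraries were alternatives. The chi-square per degree of freedom between libraries of one group was at least 9.39, so none was a copy of another library's counts. This value cannot tell separate preparations of one RNA from separate embryos. Of the members, 12 have values that are not whole and 5 overlap another gene of the table.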

Additional observations from a re-analysis of the deposited data

Results flagged for a closer look

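Among 56 genes examined, 3 had 1 cKO library far from the other 3 (a gap to the nearest that fills most of the range of the 4), where chance gives about 1 group in 20. Brca1 was at 41.7 CPM in cKO replicate 4 against 39.6 to 39.9 CPM in the other cKO libraries. Polk was at 16.6 CPM in cKO replicate 4 against 14.96 to 15.02 CPM in the other 3. Mcm6 was at 181 CPM in cKO replicate 1 against 191.01 to 191.8 CPM in the other 3.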

How the results depend on the processing

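No alternative called a member: the count stayed at 0 of 32 under all 18, where the smallest adjusted p was 0.155 (Msh6, upper-quartile factors, edgeR). Their median was -0.05 to -0.01, with -0.0087 within F169. Lemd2 was called under each. The number of genes called was 637 with DESeq2, 13 with the replicate block, 20 among F169 libraries, 20 in a fit with a Y-linked term, 17 without cKO replicates 3 and 4, and 28 to 133 with 1 library left out. Wider repair genes called numbered 3 with DESeq2, 2 with the F code as a term, 0 with the replicate block, within F169, with Y-linked expression and without cKO replicates 3 and 4, and 0 to 1 with 1 library left out. F191 holds 1 library per group. Same-numbered libraries correlated at 0.04, -0.08 and -0.08 in their deviations, so the numbers were not taken to pair them. Over all pairs of a control and a cKO library the correlations ran from -0.20 to 0.22. The highest was that of control replicate 3 with cKO replicate 4, which share the code F191, and its cause was not tested. Of the members, 18 kept 1 sign and 14 changed it, none of them called; as reported these 14 were within 0.07 of 0, and under alternatives Xpc reached -0.10. The cause was not tested. With the replicate block Prkdc had 0.011, Nbn 0.0068, Xrcc5 0.0024 and Xrcc6 0.034, and the calls of Cdkn1a (adjusted p = 0.0573 by edgeR), Ccng1 (0.0847), Gadd45a (0.196) and Polq (0.222) were lost. With the F code as a term Mcm2 had 0.0025. Within F169 Prkdc had 0.061, Nbn 0.010, Brca2 0.0011, Palb2 0.0078, Rpa2 0.015, Xrcc6 0.033, Fanca -0.018 and Xpc 0.0030. With Y-linked expression Prkdc had 0.030, H2afx -0.0095, Palb2 0.022, Rpa1 -0.0019, Xrcc6 0.019 and Mcm5 0.014. Without cKO replicates 3 and 4 the values were 0.030, -0.0080, 0.022, -0.0020, 0.019 and 0.013 for the same 6 genes. With 1 library left out, ranges crossing 0 were -0.0060 to 0.050 (Atm), -0.043 to 0.015 (Parp2), -0.033 to 0.025 (Atr), -0.052 to 0.015 (Xrcc5), -0.025 to 0.036 (Xrcc6), -0.076 to 0.012 (Prkdc), -0.086 to 0.013 (Rpa2), -0.0077 to 0.062 (Fanca), -0.0020 to 0.059 (H2afx), -0.036 to 0.0085 (Nbn), -0.037 to 0.029 (Mcm5) and -0.020 to 0.030 (Mcm2).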
